A study of Mus musculus with 9 samples.

Results

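The genes examined were the SMAD family and its main nuclear inhibitors in the mediobasal hypothalamus (MBH): Smad1, Smad2, Smad3, Smad4, Smad5, Smad6, Smad7, Smad9, Ski and Skil. They were taken by gene symbol from the log2 CPM table and by summing all transcripts of each gene, which gave 10 of the 35975 genes with quantified transcripts. All 10 passed the filter on low counts that left 15340 genes, and all 10 had a row among the 14592 named rows of the authors' table. The group was selected on results of these same libraries, the difference between Emul and CTRL, in which Smad7 stood out, so every such difference of a member is a description and carries no test of its own. MBH was taken from wild-type C57Bl/6 male offspring at P21, the age of weaning. Their dams drank either plain water (CTRL, 4 libraries) or water with 1% carboxymethylcellulose (CMC) and 1% polysorbate 80 (P80), which are food emulsifiers (Emul, 5 libraries). The design text gives 4 control and 5 emulsifier litters and all pups stayed with their dams until weaning, so exposure through the dam and intake of the dam's water by the pups cannot be told apart. The dams drank these from weeks before mating through gestation and lactation, so effects of these periods cannot be told apart either.

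SMAD proteins carry signals of the TGF-β family from the cell membrane to the nucleus. Type I receptors phosphorylate the receptor SMADs: Smad2 and Smad3 after TGF-β and activins, Smad1, Smad5 and Smad9 after bone morphogenetic proteins (BMPs). These join the common partner Smad4 and act on target genes, and among the genes they induce are those of the inhibitory proteins Smad6 and Smad7, which block the receptors. Ski and its relative Skil (SnoN) bind SMAD complexes in the nucleus and hold back transcription. In the brain the pathway takes part in neuron and glia development, and Smad7 is known as a positive regulator of oligodendrocyte maturation and myelination.

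The libraries were strand-specific and held between 28245360 and 46067534 estimated counts, with CTRL 3 the lowest. At this depth the members had from 727 to 3942 counts per library, except Smad6 with 52 to 94. Of the markers of the MBH that were examined, 9 of 10 passed the filter, among them Pomc, Agrp and Npy, with a summed level of 192 to 253 CPM in CTRL and 194 to 249.9 CPM in Emul. Kiss1 fell below it.

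Smad7, which turns off TGF-β family receptors, had the widest difference of the group, 24.0% lower in Emul. The next were the BMP receptor SMAD Smad5, 9.61% lower, and Smad6, 9.33% lower, a value within its error that moved by over 1.5 times with the choice of libraries. The nuclear co-repressors Skil and Ski were 5.89% and 4.86% lower. Smad1, Smad2, Smad3, Smad4 and Smad9 differed by under 2% each. The median log2 difference (Emul minus CTRL) of the 10 genes was −0.050, or −0.028 for the 9 other than Smad7, beside 0.0015 over all 15340 genes. All 10 differences were below 0, beside 49.2% of all genes, but those of Smad1, Smad3 and Smad4 turned sign under at least 1 other way of processing. Those of Smad1, Smad2, Smad3, Smad4, Smad6 and Smad9 were smaller than their standard errors. Because the genes were chosen by this contrast, no shared direction is read from them.

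**Figure D1:**
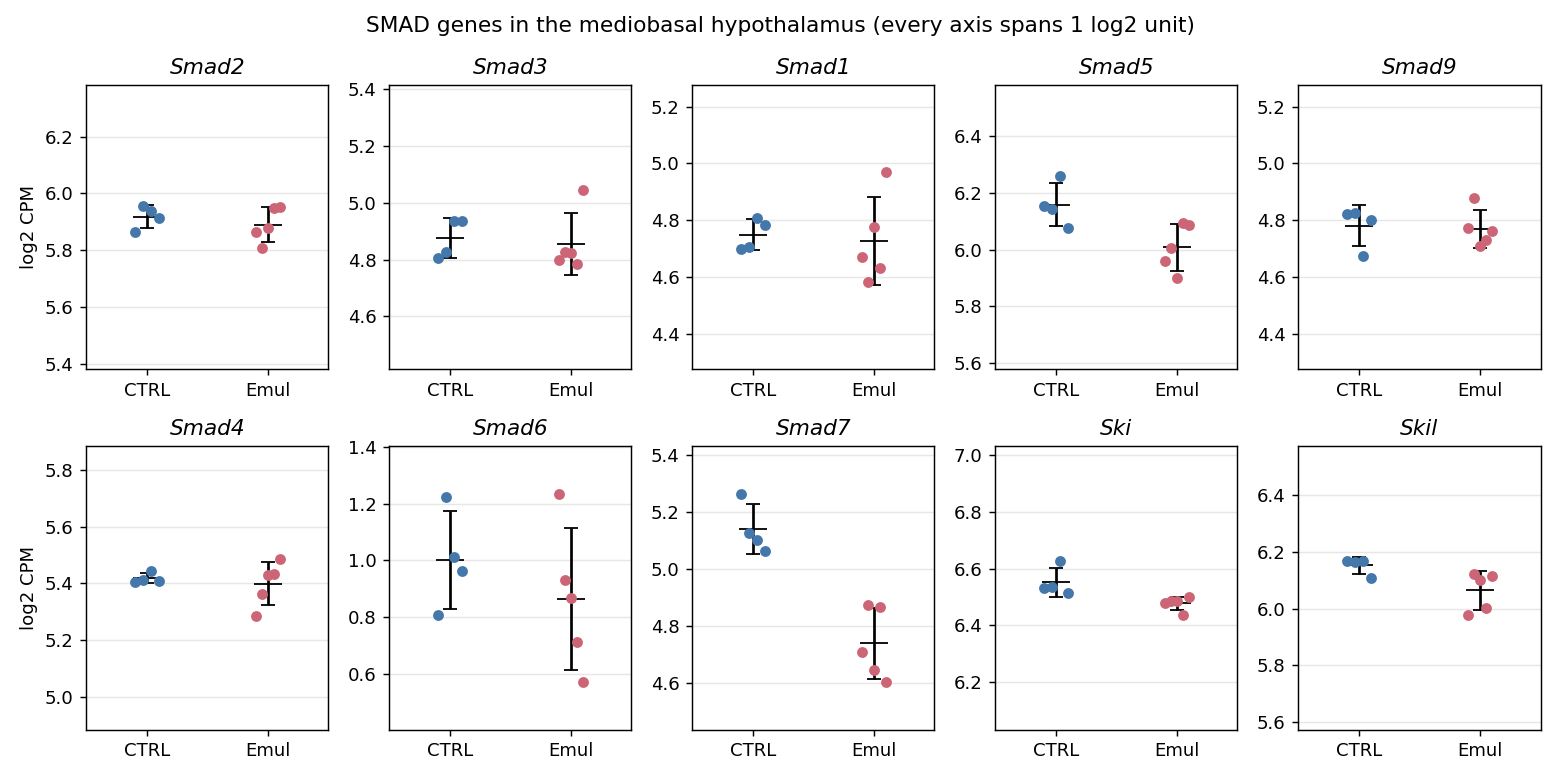
Each panel shows 1 gene, with log2 CPM on the y axis, a dot for every CTRL (blue) or Emul (red) library and a black line with bars for the mean ± SD of 4 CTRL and 5 Emul libraries. Each y axis spans 1 log2 unit but starts at a different level, and Smad7 and Ski are the 2 genes in which every Emul dot lies below every CTRL dot, by 0.19 for Smad7 and 0.012 for Ski.

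Without adjustment, limma-voom gave a p-value under 0.05 to 4 members, all lower in Emul (Smad7, Smad5, Skil and Ski), and to 0 members higher, where 8.99% of all genes tested were lower and 6.84% higher by the same rule. After Benjamini-Hochberg adjustment over all genes, 1 member (Smad7) was under 0.05, as were 0.117% of all genes (18 of 15340). Every Emul library lay below every CTRL library for 2 members (Smad7 and Ski), as for 3.8% of all genes. Because these genes were chosen by this contrast, nothing is read from the counts. None of the 10 passed a cutoff of an unadjusted p under 0.05 with a 1.5-fold change, which 72 genes passed. The study's methods give these thresholds without saying whether the p-value was adjusted, and a legend of the paper names the false discovery rate.

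Smad7 (chr18:75367529-75395935, plus strand, mm10) was measured at 5.27, 5.13, 5.10 and 5.06 log2 CPM in CTRL 1 to 4 and at 4.71, 4.88, 4.64, 4.86 and 4.60 log2 CPM in Emul 1 to 5. The lowest CTRL library was thus above the highest Emul library, and within Emul the highest were Emul 2 and Emul 4. The group means were 5.14 ± 0.088 (SD, n = 4) and 4.74 ± 0.13 (SD, n = 5) log2 CPM, and the log2 difference from limma-voom was −0.40 with a standard error (SE) of 0.064. Of all genes tested, 0.971% had a lower log2 difference than Smad7.

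In the authors' own log2 CPM table Smad7 was at 5.41, 5.45, 5.17 and 5.22 in CTRL and at 4.94, 4.89, 4.94, 4.80 and 4.51 in Emul. The groups were again apart, and the difference was wider, −0.50. Scaling gene counts from TPM by length gave −0.50 as well. For 9 of the 10 members the authors' values were closer to that length-scaled summary than to plain sums of counts, Smad1 being the exception.

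Smad7 has transcripts of very different length, and a read on a short one weighs more on scales that divide by length. The longest coding transcript, of 4278 bases, held 94.6% to 99.7% of the Smad7 counts in every library. It stood at 16.9, 15.9, 16.1 and 15.1 TPM in CTRL and at 11.0, 12.1, 10.4, 13.2 and 10.7 TPM in Emul, so this transcript alone also separated the groups, with means of 16.0 ± 0.73 (SD, n = 4) and 11.5 ± 1.16 (SD, n = 5) TPM. The 3 transcripts under 1000 bases held 0.303% to 5.34% of the counts but 3.76% to 30.6% of the TPM. Their share of TPM was 17.4%, 30.6%, 16.3% and 21.2% in CTRL and 26.3%, 12.5%, 30.4%, 4.98% and 3.76% in Emul, and the groups overlapped.

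**Figure D2:**
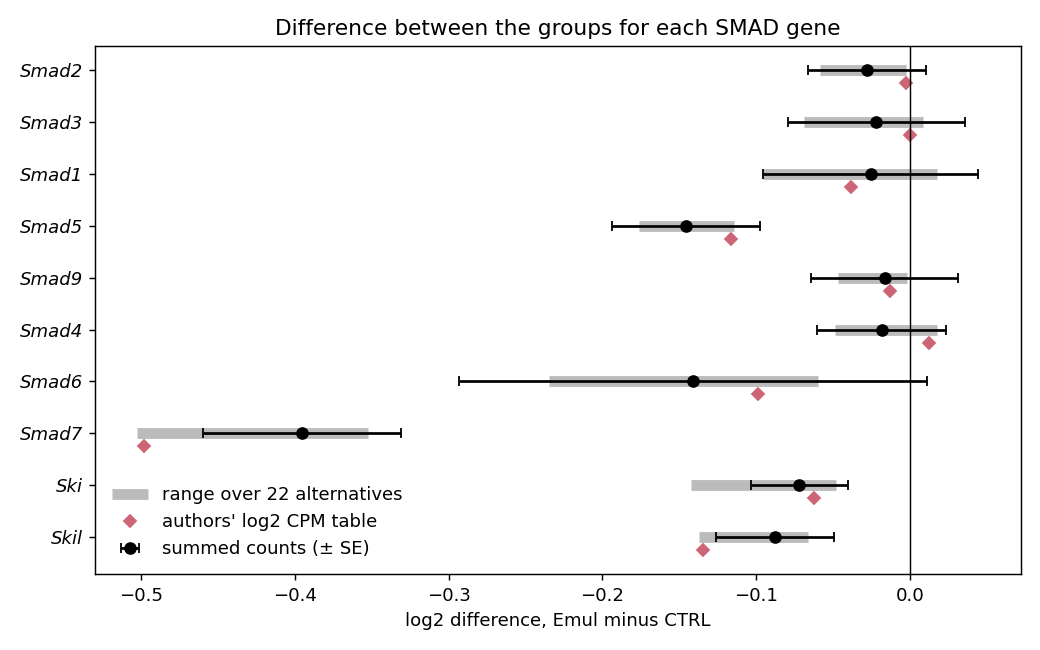
The x axis is the log2 difference, Emul minus CTRL, for each of the 10 genes on the y axis. Black dots with bars are the limma-voom difference ± SE on summed counts, red diamonds the difference of means in the authors' table, and grey bars the range over 22 other ways of processing. Smad7 lies farthest from 0 on every scale, −0.40 on summed counts and −0.50 in the authors' table, and the bars of Smad1, Smad3 and Smad4 reach across 0.

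The co-repressor Ski (chr4:155154075-155222592, minus strand) was measured at 6.53, 6.53, 6.63 and 6.51 log2 CPM in CTRL and at 6.48, 6.48, 6.49, 6.44 and 6.50 log2 CPM in Emul. The groups were apart by only 0.012, and in the authors' table they just overlapped. Its log2 difference was −0.072 (SE 0.032). Between 9.23% (CTRL 3) and 26.0% (Emul 5) of the Ski counts fell on a processed transcript without an annotated reading frame, and with protein-coding transcripts alone the difference was −0.14.

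The second co-repressor, Skil (chr3:31095058-31122577, plus strand), was at 6.17, 6.16, 6.17 and 6.11 log2 CPM in CTRL and at 5.98, 6.12, 6.10, 6.00 and 6.12 log2 CPM in Emul. The lowest CTRL library, CTRL 4, lay just below the highest Emul libraries, and the log2 difference was −0.088 (SE 0.038). What varied more was how the Skil counts were divided between transcripts. The longest Skil transcript and 1 shorter coding transcript carry a stretch of 138 bases at the end of exon 4 that encodes 46 residues, and the second longest transcript lacks it. The stretch is shown because it is what tells these transcripts apart. It lies at chr3:31113503-31113640 (mm10, plus strand) and is printed in lower case since no part of it is singled out.
Skil exon 4 stretch: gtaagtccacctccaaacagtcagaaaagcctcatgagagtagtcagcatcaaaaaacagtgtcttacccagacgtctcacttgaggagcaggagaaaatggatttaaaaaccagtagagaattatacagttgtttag

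The long Skil transcript without this stretch took 23.4%, 21.5%, 36.6% and 25.6% of the Skil counts in CTRL and 36.6%, 35.1%, 32.6%, 39.0% and 46.5% in Emul. Apart from CTRL 3, which was also the shallowest library, the CTRL libraries were below all Emul libraries, but with CTRL 3 the groups overlapped. The CTRL mean was 26.8% ± 6.77 (SD, n = 4) of the counts, and the Emul mean 37.9% ± 5.29 (SD, n = 5). On the TPM scale the shares were 24.4% ± 6.54 and 35.6% ± 4.19. Such shares are estimates that kallisto splits from reads common to the transcripts, and they are given as a description.

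**Figure D3:**
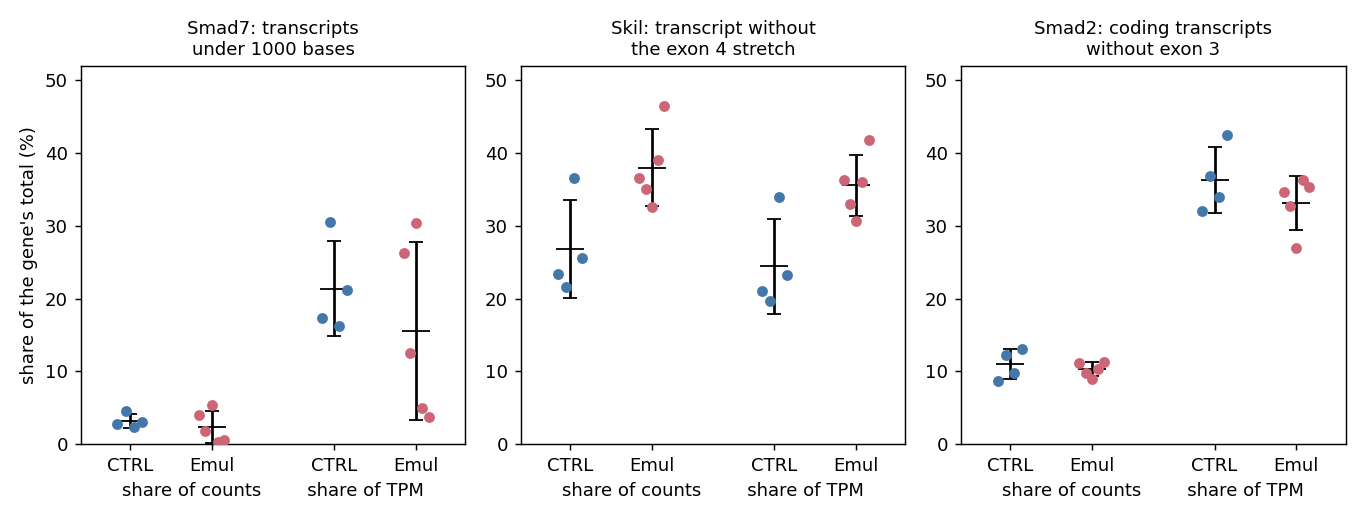
The y axis is the percentage of a gene's counts (left of each panel) or TPM (right) that fell on the named transcripts, with a dot for each CTRL (blue) or Emul (red) library and the mean ± SD. The share of the Skil transcript without the exon 4 stretch ran from 21.5% to 36.6% in CTRL and from 32.6% to 46.5% in Emul, while the short Smad7 transcripts and the Smad2 transcripts without exon 3 overlapped widely.

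Of the BMP receptor SMADs, Smad5 (chr13:56703010-56742377, plus strand) was measured at 6.15, 6.14, 6.26 and 6.08 log2 CPM in CTRL and at 5.96, 6.01, 5.90, 6.09 and 6.09 log2 CPM in Emul. The groups overlapped only through CTRL 4, which was 0.017 below the highest Emul library. The log2 difference was −0.15 (SE 0.048) and stayed between −0.18 and −0.11 over the other ways of processing. An annotated small RNA, Gm27301, shares 100 bases of Smad5 exons on the same strand and was not among the quantified genes, and none of the other 9 members shares exon bases with another gene in the annotation.

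Smad1 (chr8:79338395-79399518, minus strand) ranged from 4.70 to 4.81 log2 CPM in CTRL and from 4.58 to 4.97 log2 CPM in Emul, with Emul 5 the highest of all 9 libraries. Its log2 difference was −0.026 (SE 0.070). With gene counts scaled from TPM by length it was −0.096, and with protein-coding transcripts alone 0.018. Smad9, which encodes the third BMP receptor SMAD (chr3:54755582-54801257, plus strand), ranged from 4.67 to 4.83 log2 CPM in CTRL and from 4.71 to 4.88 log2 CPM in Emul, with a log2 difference of −0.017 (SE 0.048). The ranges of both genes overlapped almost fully, and Smad9 has a single annotated transcript.

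Smad6 (chr9:63953076-64022059, minus strand), the inhibitor that acts mainly on the BMP branch, was the scarcest member. It was at 0.81, 1.22, 1.01 and 0.96 log2 CPM in CTRL and at 1.23, 0.93, 0.87, 0.71 and 0.57 log2 CPM in Emul. Emul 1 was the highest library and Emul 5 the lowest, so the groups overlapped over their whole CTRL range. The log2 difference was −0.14 with an SE of 0.15, wider than the difference. Without CTRL 2 it was −0.060, without Emul 5 −0.074 and without Emul 1 −0.23, so its place beside Skil and Ski depended on the libraries used, and with 52 to 94 counts a library a change of this size was not detectable.

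Promoter windows from RefSeq (GRCm38.p6) ran from 250 bases before to 50 bases after a start site. Those of 6 of the 10 genes (Smad1, Smad3, Smad5, Smad6, Smad9 and Ski) were used, in 8 windows. They were searched on both strands for the SMAD box CAGAC, which reads GTCTG on the other strand and was present in 49.6% of all 32851 windows of that length, for the palindromic SMAD element GTCTAGAC, present in 0.213%, and for the BMP element GGCGCC, present in 11.9%. The palindrome does not contain the SMAD box. It was found in the Smad6 window, where its first base is 4 bases before the start site. No window of the other 5 genes searched held it. The promoters of the remaining members were not searched, so the palindrome cannot be called particular to Smad6 within the group. The SMAD box was found in 1 of the windows of Smad5, and the BMP element in windows of Smad5, Smad9 and Ski. The stretch of the Smad6 window that leads up to the palindrome and includes it is shown because that element is rare among promoters. It lies at chr9:64022056-64022185 (minus strand), 5′ to 3′, with the palindrome in capitals. A match is a description of letters, not of binding.
Smad6 promoter: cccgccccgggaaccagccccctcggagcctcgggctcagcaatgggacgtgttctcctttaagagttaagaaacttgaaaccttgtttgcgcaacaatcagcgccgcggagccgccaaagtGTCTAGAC

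Of the TGF-β and activin receptor SMADs, Smad3 (chr9:63646767-63757994, minus strand) was at 4.81, 4.83, 4.93 and 4.94 log2 CPM in CTRL and at 4.80, 4.83, 4.82, 4.78 and 5.05 log2 CPM in Emul. Of the Emul libraries 4 lay within 0.042 of each other and Emul 5 stood above them and above every CTRL library. The log2 difference was −0.022 (SE 0.057).

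Smad2 (chr18:76241580-76310963, plus strand) ranged from 5.86 to 5.96 log2 CPM in CTRL and from 5.81 to 5.95 log2 CPM in Emul, with a log2 difference of −0.028 (SE 0.038). Exon 3 of Smad2, of 90 bases, is left out of some coding transcripts, and the protein without it is known to bind DNA as Smad3 does. The 2 longest transcripts of this kind held 8.74% to 13.1% of the Smad2 counts in CTRL and 9.02% to 11.4% in Emul. Their shares of Smad2 TPM were 36.3% ± 4.53 (SD, n = 4) and 33.2% ± 3.71 (SD, n = 5), and the groups overlapped on both scales. The common partner Smad4 (chr18:73639009-73703780, minus strand) lay between 5.41 and 5.44 log2 CPM in CTRL and between 5.29 and 5.48 log2 CPM in Emul, with a log2 difference of −0.018 (SE 0.042). In the authors' table that difference was 0.013.

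The order of the genes by level, which was not used to choose them, was examined by TPM, a unit per transcript length that allows levels of different genes to be compared. Over the 9 libraries Ski stood highest at 33.3 ± 2.30 TPM (SD, n = 9), followed by Smad4 (27.2 ± 2.78), Smad2 (26.5 ± 2.09), Skil (21.7 ± 2.18), Smad5 (20.7 ± 2.11), Smad1 (18.9 ± 2.21), Smad7 (16.9 ± 4.03), Smad3 (13.3 ± 1.71), Smad9 (9.81 ± 0.52) and Smad6 (1.26 ± 0.21 TPM). Neighbours in this order were set against each other in an exact permutation test (two-sided) that flips signs of the log2 TPM differences within libraries, with adjustment over 9 pairs, where the smallest unadjusted p that 9 libraries allow is 0.0039. Ski was above Smad4 by 0.30 on the log2 TPM scale in 9 of 9 libraries, Smad2 above Skil by 0.29 in 9 of 9, Smad3 above Smad9 by 0.43 in 9 of 9, and Smad9 above Smad6 by 2.97 in 9 of 9 (adjusted exact p = 0.0088 for each). Smad5 was above Smad1 by 0.13 in 8 of 9 libraries (adjusted exact p = 0.021). Much of the Smad2 TPM came from its shorter transcripts. Its longest, of 8089 bases, held 78.2% to 85.3% of the Smad2 counts but 39.7% to 47.9% of the Smad2 TPM. The longest Smad3 transcript held 95.1% to 99.4% of the Smad3 counts but 69.1% to 95.2% of the Smad3 TPM. The places of Smad2 and Smad3 thus depend on how reads were split between their transcripts, and the order on long transcripts alone was not tested.

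The remaining neighbours did not pass. Smad4 was above Smad2 by 0.031 ± 0.15 (SD, n = 9) on the log2 TPM scale (adjusted exact p = 0.54), and with protein-coding transcripts alone this pair turned and the step from Ski to Smad4 did not pass. Skil was above Smad5 by 0.071 ± 0.076 (adjusted exact p = 0.053), Smad1 above Smad7 by 0.20 ± 0.33 (adjusted exact p = 0.11) and Smad7 above Smad3 by 0.31 ± 0.37 (adjusted exact p = 0.055). Both Smad7 comparisons spread widely, and Smad7 itself differed between the groups. In CTRL Smad7 was at 20.8 ± 1.91 TPM (SD, n = 4), beside 20.3 ± 1.49 TPM for Smad1. In Emul it was at 13.7 ± 1.53 TPM (SD, n = 5), beside 12.9 ± 1.53 TPM for Smad3. Libraries within a group differed as well, and Emul 5 had Smad7 at 11.2 TPM, beside 21.1 TPM for Smad1 and 14.1 TPM for Smad3. How much of the spread lay between the groups was not tested.

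**Figure D4:**
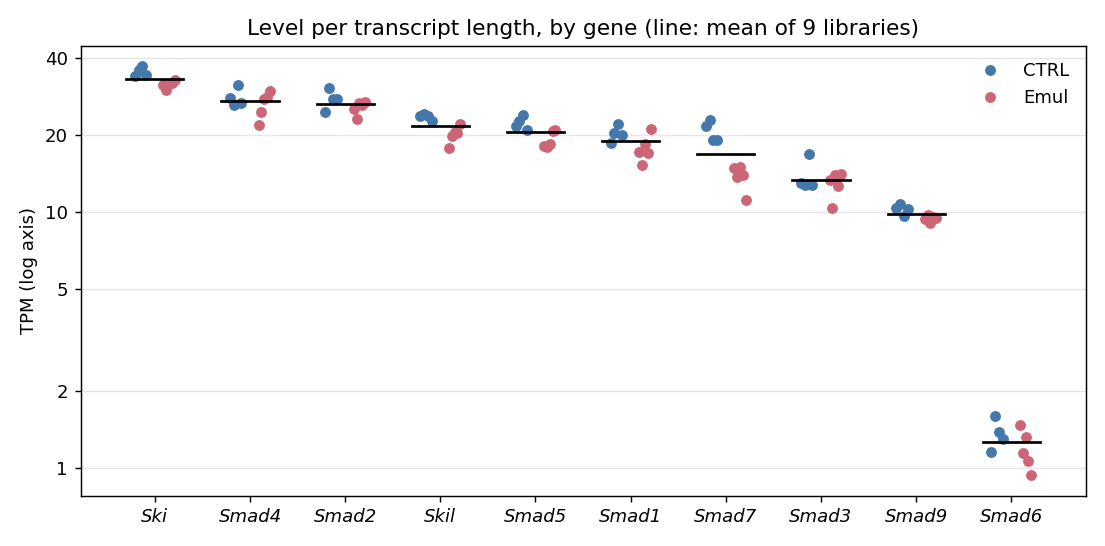
The y axis is TPM on a log scale and the x axis the 10 genes from the highest to the lowest mean, with dots for 4 CTRL (blue) and 5 Emul (red) libraries and a line at the mean of 9. Ski is highest at 33.3 TPM and Smad6 lowest at 1.26 TPM, and Smad7 lies between Smad1 and Smad3.

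The genes whose profiles were most like that of Smad7 were found by the root-mean-square difference between log2 CPM profiles over the 9 libraries, each centred on its own mean. They were D16Ertd472e (0.069), Inppl1, which encodes a phosphoinositide phosphatase (0.071), Elovl1, which encodes a fatty acid elongase (0.078), Mbp, which encodes myelin basic protein (0.079), and Nfkb2, which encodes an NF-κB subunit (0.080). In all 5, as in Smad7, CTRL 1 was the highest CTRL library and Emul 2 and Emul 4 were the highest within Emul. The 5 genes were picked for likeness to this profile, so nothing is read from their shared order of libraries. Among the members the nearest was Smad5, in place 674 of all genes at 0.16, and the farthest Smad1 at 0.27.

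Markers of mature oligodendrocytes, which make myelin, showed a similar order of libraries. Mbp, Mog, Mag and Mobp were lower in Emul in 4 of 4 cases, 3 of them at an unadjusted p under 0.05, beside 8.99% of all genes tested, and 0 at an adjusted p under 0.05 (limma-voom, smallest 0.17), with a median log2 difference of −0.30. Their summed level was 9589, 8457, 7872 and 7637 CPM in CTRL and 6456, 7555, 6341, 8085 and 5856 CPM in Emul. Emul 2 and Emul 4, the highest Emul libraries for Smad7, were also the highest here, and unlike for Smad7 the groups overlapped. Most of this sum was Mbp, which had been picked for its likeness to Smad7, but the other 3 markers, at 2208 to 2817 CPM in CTRL and 1611 to 2428 CPM in Emul, also had these libraries highest within Emul. The same libraries were the highest within Emul for the summed markers of astrocytes and of oligodendrocyte precursors, so this trait was not particular to mature oligodendrocytes. The 6 astrocyte markers were all lower in Emul, with a median log2 difference of −0.051, but only 1 (Gfap) at an unadjusted p under 0.05. Every Emul library lay below every CTRL library for Gfap, as for 3.8% of all genes, and its log2 difference was −0.40 (SE 0.088, limma-voom adjusted p = 0.10). With Gfap included, the 6 markers summed to 2092 to 2166 CPM in CTRL and 1907 to 2083 CPM in Emul. For each of the other astrocyte markers (Aqp4, Gja1, Slc1a3, Aldh1l1 and Aldoc) the groups overlapped, and their sum without Gfap was not examined. Of the 5 neuronal markers, 4 were higher at an unadjusted p under 0.05, beside 6.84% of all genes tested, and 0 at an adjusted p under 0.05 (smallest 0.12), with a summed level of 2360 to 2574 CPM in CTRL and 2556 to 2768 CPM in Emul. The part of these cell types in the Smad7 difference was not tested, and in bulk tissue fewer cells of a type and less RNA per cell cannot be told apart.

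**Figure D5:**
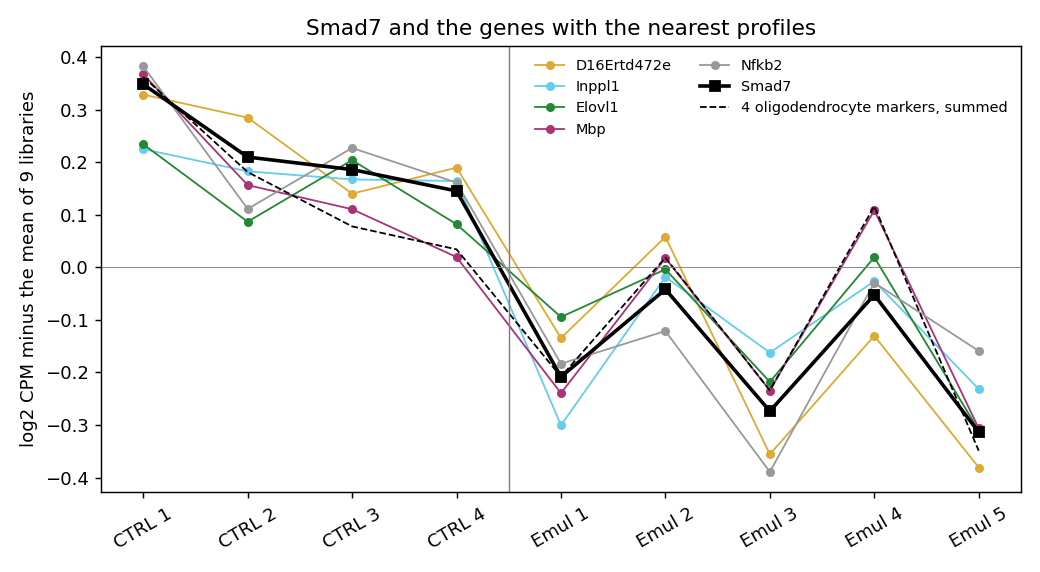
The y axis is log2 CPM minus each gene's mean over 9 libraries, and the x axis the 4 CTRL and 5 Emul libraries, with the groups split by a grey line. Smad7 is the thick black line, the 5 genes picked as nearest to it are in colour and the dashed line is the summed level of 4 oligodendrocyte markers. All lines are highest in CTRL 1 and, within Emul, higher in Emul 2 and Emul 4.

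The rest of the pathway was examined in 9 lists of 87 genes (ligands, receptors, antagonists, cofactors and targets), of which 76 passed the filter. No gene was at an adjusted p under 0.05 (limma-voom, smallest 0.16), in any of the 22 other ways of processing either. At an unadjusted p under 0.05, 9 were lower (11.8%) and 5 higher (6.58%), beside 8.99% and 6.84% of all genes tested, and 0 passed the cutoff with a 1.5-fold change. The median log2 difference was −0.033.

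Among 9 BMP ligands tested, 2 were lower and 1 higher at an unadjusted p under 0.05, beside 8.99% of all genes lower and 6.84% higher. Bmp4 had a log2 difference of −0.30 (SE 0.091, limma-voom adjusted p = 0.18), or −0.18 with gene counts scaled from TPM by length, Bmp7 of −0.19 (SE 0.079, adjusted p = 0.27) and Bmp8b of 0.35 (SE 0.12, adjusted p = 0.21). Bmp8b was higher in every Emul library, as were 2.8% of all genes, while the Emul libraries of Bmp4 and Bmp7 overlapped with CTRL. Bmp8b was about as scarce as Smad6, at 0.41 to 0.73 log2 CPM in CTRL and 0.82 to 1.06 log2 CPM in Emul, so its value carries more counting error. None of the 7 TGF-β and activin ligands tested was under 0.05 without adjustment. The nearest was Gdf11 at −0.094 (limma-voom adjusted p = 0.48), ahead of Inhba at 0.16 and Tgfb1 at −0.10, which was 0.083 in the authors' table. Gdf11 was at −0.041 without CTRL 4, and Inhba at 0.043 without CTRL 3.

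Of 7 type I receptors none, and of 4 type II receptors 1, had an unadjusted p under 0.05, beside 8.99% of all genes lower and 6.84% higher. This was Bmpr2, the BMP type II receptor, with a log2 difference of 0.081 (SE 0.033, limma-voom adjusted p = 0.26). The type I receptors nearest to it were Bmpr1b at −0.11, Bmpr1a at 0.080 and Acvr1c at 0.18, and the type II receptors Acvr2a at 0.086 and Acvr2b at −0.072. With gene counts scaled from TPM by length, Bmpr1a was at 0.036 and Acvr2b at −0.27, and without CTRL 2 Acvr2b was at −0.021. All 4 co-receptors had log2 differences below 0, among them −0.11 for the TGF-β co-receptor Eng, −0.035 for Rgmb and −0.026 for Rgma, the last 2 of which turned sign under other ways of processing, with none under 0.05. Eng was at −0.017 without CTRL 4. Of the 4 latent TGF-β binding proteins, Ltbp3 was at −0.081, Ltbp2 at 0.22 and Ltbp1 at −0.073, also with none under 0.05. No direction is read from these, since in the authors' table Ltbp3 was at 0.36 and Ltbp2 at −0.37, and Ltbp1 was at 0.011 without CTRL 4.

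The antagonists outside the cell and at its membrane held 3 of 11 genes at an unadjusted p under 0.05. Of these, 2 were lower and 1 higher, beside 8.99% of all genes lower and 6.84% higher. Chrd, which encodes the BMP-binding protein chordin, was at 3.79, 3.64, 3.76 and 3.81 log2 CPM in CTRL and 3.64, 3.54, 3.59, 3.50 and 3.34 log2 CPM in Emul, a log2 difference of −0.23 (SE 0.068, limma-voom adjusted p = 0.17) that was −1.01 with protein-coding transcripts alone. Bambi, a decoy for type I receptors and a known target of the pathway, was at 2.18, 2.24, 2.49 and 2.46 log2 CPM in CTRL and 2.14, 2.01, 2.00, 1.99 and 2.03 log2 CPM in Emul, a log2 difference of −0.30 (SE 0.091, limma-voom adjusted p = 0.17). Grem1, which encodes the BMP antagonist gremlin, ranged from 2.54 to 2.65 log2 CPM in CTRL and from 2.76 to 3.04 log2 CPM in Emul, a log2 difference of 0.26 (SE 0.080, limma-voom adjusted p = 0.18). All Emul libraries were below all CTRL libraries for Chrd and Bambi and above them for Grem1, yet none of the 3 passed after adjustment. Over all genes, 3.8% lay wholly below and 2.8% wholly above CTRL in this way.

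Of 15 cofactors and regulators, 2 were lower and 1 higher at an unadjusted p under 0.05, beside 8.99% of all genes lower and 6.84% higher. Zfyve9 (SARA), which anchors Smad2 and Smad3 near the receptors, was higher in every Emul library, as were 2.8% of all genes. Its log2 difference was 0.11 (SE 0.033, limma-voom adjusted p = 0.16). The kinase gene Hipk2 was at −0.12 (limma-voom adjusted p = 0.17) and the histone acetyltransferase gene Ep300 at −0.091 (adjusted p = 0.24), or −0.044 in the authors' table. Of 15 target genes, 3 were lower and 1 higher by the same rule, beside the same shares of all genes. They were Junb at −0.46 (limma-voom adjusted p = 0.25), Ccn2 at −0.27 (adjusted p = 0.28), or −0.16 without CTRL 1, Id4 at −0.16 (adjusted p = 0.31), or −0.094 without CTRL 3, and Id2 at 0.16 (adjusted p = 0.30). These target genes also respond to other signals, and their libraries overlapped between the groups.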

How the data were processed

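MBH RNA of 4 CTRL and 5 Emul litters was sequenced as strand-specific paired-end libraries of 50 bases. The authors deposited estimated counts and TPM values of 119414 transcripts per library, both from kallisto, which are not rescaled between libraries, and a table of log2 CPM per gene symbol, with 1 unnamed row left out. The submitters' processing notes name FastQC 0.11.9, kallisto 0.46.1, edgeR 3.40.1 and mm10. How the authors summed transcripts to genes and whether kallisto used the strand are not given in the sources used here.

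Transcripts were matched to genes by identifier in GENCODE M21 (97.8% of them) and estimated counts were summed per gene. Unmatched transcripts held 1.20% to 1.27% of the counts and were left out. Genes had to exceed a CPM of 1 in 4 or more libraries, and were scaled by TMM and fitted without covariates with limma-voom (limma 3.58.1, edgeR 4.0.16, R 4.3.3), with Benjamini-Hochberg adjustment over all genes tested. Log2 CPM per library had a prior count of 2. Totals of 28245360 to 46067534 left little counting error for the members other than Smad6, but more for scarce pathway genes such as Bmp8b and Ltbp2. Replicates were litters. No library pair agreed within sampling noise. The fit was tested on simulated counts.

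Members and lists were chosen with earlier results of these data known. Named were the members, up to 3 genes of each pathway list with the smallest p-values, the 5 genes nearest to Smad7, and, after their values were seen, Id4 and the marker genes. Protein sequences were not used here, and promoters of Smad2, Smad4, Smad7 and Skil were not searched. A single marker gene is not reported here and was left out of its list. DESeq2 1.42.0, edgeR's quasi-likelihood test, other scalings, filters and gene summaries, the authors' table, a replicate block and leaving out each library were tried. Replicate numbers were shared by the groups without pairing them.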

Additional observations from a re-analysis of the deposited data

Results flagged for a closer look

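In 6 of the 76 sets of libraries examined (each of 38 members and named pathway genes within CTRL or Emul), 1 library stood apart from the rest of its group by Dixon's test, where chance alone gives about 3.8. Smad3 was at 5.05 log2 CPM in Emul 5, with the other Emul libraries between 4.78 and 4.83. Smad4 was at 5.44 log2 CPM in CTRL 3, with the other CTRL libraries between 5.406 and 5.411. Skil was at 6.11 log2 CPM in CTRL 4, with the others between 6.16 and 6.17, and this library is the one through which the Skil groups overlapped. Gdf11 was at 4.92 log2 CPM in Emul 4, with the other Emul libraries between 4.87 and 4.88. Acvr2a was at 6.09 log2 CPM in CTRL 3, with the other CTRL libraries between 5.93 and 5.95. Bambi was at 2.14 log2 CPM in Emul 1, with the other Emul libraries between 1.99 and 2.03.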

How the results depend on the processing

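The log2 difference of Smad7 kept its direction in all 22 alternatives, between −0.50 and −0.35, the smallest without CTRL 1. The numbers of CTRL and Emul libraries did not pair them (correlations of deviations between −0.16 and 0.021, none best with its own number), and a replicate block over 4 pairs gave −0.36 for Smad7. Between 8 and 10 members lay below 0, and the Ski difference of −0.14 with protein-coding transcripts alone was the one member value that moved beyond the spread of the libraries. The number of pathway genes lower at an unadjusted p under 0.05 was 15 with library size alone and ran from 5 (without CTRL 3 or Emul 5) to 11 on leaving out libraries, and the number higher was 3 with library size alone, 2 with the replicate block and from 3 (without CTRL 4 or Emul 5) to 7 on leaving out libraries. Some small log2 differences of named pathway genes turned sign: Tgfb1 to 0.083 in the authors' table, 0.031 with transcripts of lower Ensembl numbers and 0.0091 with protein-coding transcripts; Ltbp3 to 0.36, 0.38 and 0.26 under the same 3; Ltbp2 to −0.37 in the authors' table and −0.38 with length-scaled counts; Rgmb to 0.0066 with length-scaled counts; and, on leaving out libraries, Ltbp1 (−0.13 to 0.011, above 0 without CTRL 4) and Rgma (−0.069 to 0.011, above 0 without CTRL 4 and, at 0.0014, without Emul 4). In the TPM order, protein-coding transcripts alone gave Ski over Smad4 by 0.056 (adjusted exact p = 0.29) and turned Smad4 over Smad2 to −0.12 (adjusted exact p = 0.014). On leaving out libraries, Skil over Smad5 ran from 0.060 to 0.083 and passed without CTRL 3, Emul 1 or Emul 4 (adjusted exact p = 0.047), Smad1 over Smad7 from 0.10 to 0.25 and passed without CTRL 1 (adjusted exact p = 0.047), and Smad7 over Smad3 from 0.25 to 0.40 and passed without Emul 5 (adjusted exact p = 0.012). In the CTRL libraries alone, where no test can reach 0.05, Smad1 over Smad7 was −0.030. The causes were not tested.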
